A study of Mus musculus with 16 samples.

Results

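The 6 genes described here encode keratins of the epidermis: Krt5, Krt14 and Krt15 of its basal layer, and Krt1, Krt10 and Krt77 of the layers above it. They were chosen by gene symbol, as all probes that the array's annotation assigns to these symbols. This gave 1 probe for each gene, 6 of the 25697 probes on the array, of which 23978 carry a gene symbol. Of the 6 member probes 3 could be tested in the comparisons below, because only Krt5, Krt14 and Krt10 gave a signal above the negative controls.

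RNA came from primary cultures of skin keratinocytes of postnatal day 1 pups on the FVB/N strain, hybridized to 16 single-color Illumina MouseRef-8 v2.0 arrays. Wild-type cells (WT) carry no extra segment. Ts cells carry the Ts1Rhr trisomy, an extra copy of a stretch of mouse chromosome 16 that matches part of human chromosome 21, present in every cell and not restricted by any promoter. Cultures of each genotype were left untreated (WT-NT and Ts-NT) or received 0.2 µM of the phorbol ester TPA for 12 h (WT-TPA, Ts-TPA), with 4 arrays in each of the 4 groups. The methods pair samples by the source of the cells, read here as an untreated and a treated array from each of 8 cultures. Arrays of the same genotype and replicate number were taken as such a pair, which the labels do not state. Each keratinocyte line came from 1 genotyped pup, so n counts pups. The sources used here do not give the pups' sex or litter.

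Keratins form the intermediate filaments that give epithelial cells their mechanical strength, and every filament pairs a type I with a type II keratin. Basal keratinocytes, the dividing cells that sit on the basement membrane, make the pair of the type II keratin Krt5 and the type I keratin Krt14. When a cell leaves the basal layer and differentiates it turns these down and makes the pair of Krt1 (type II) and Krt10 (type I) instead. Krt15 is a second type I keratin of basal and hair follicle bulge cells, and Krt77 is a type II keratin related to Krt1. TPA activates protein kinase C, an enzyme whose activation in cultured keratinocytes is known to turn down the suprabasal pair.

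The promoters of Krt5 and Krt10 are shown because these were the detected members whose signal varied most between arrays. Each line gives the 250 bases before the RefSeq start on the minus strand of GRCm38.p6, at chr15:101712906-101713155 for Krt5 and chr11:99389365-99389614 for Krt10, with capitals marking the TATA box hexamer TATAAA.
Krt5: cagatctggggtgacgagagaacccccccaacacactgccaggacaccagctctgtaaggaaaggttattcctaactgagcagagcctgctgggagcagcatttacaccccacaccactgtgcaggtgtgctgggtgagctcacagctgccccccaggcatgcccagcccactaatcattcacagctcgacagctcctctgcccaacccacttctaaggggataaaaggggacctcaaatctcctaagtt
Krt10: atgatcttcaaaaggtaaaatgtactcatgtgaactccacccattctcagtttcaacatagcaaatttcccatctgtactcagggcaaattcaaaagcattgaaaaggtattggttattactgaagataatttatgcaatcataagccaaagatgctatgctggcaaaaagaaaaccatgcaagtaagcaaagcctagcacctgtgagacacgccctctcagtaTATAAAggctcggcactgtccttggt
The Krt10 window held TATAAA, its first base 26 bases before the start, and the Krt5 window did not. Only exact matches were searched, so this does not show that Krt5 lacks a TATA box of a variant sequence. On either strand TATAAA occurred in 12.4% of 32851 RefSeq windows of the same length. The AP-1 motif TGANTCA, bound by factors that TPA is known to activate, occurred in neither window and in 6.75% of all. RefSeq windows were at hand for 4 of the 6 members, and those of Krt77 and Krt14 held neither motif.

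Krt14 varied less between arrays than the other detected members, Krt5 and Krt10. Its raw signal, in arbitrary scanner units, was 55776, 51924, 50050 and 49816 on the WT-NT arrays of replicates 1 to 4 and 54143, 48868, 44668 and 46279 on the WT-TPA arrays. It was 57569, 52489, 50931 and 45650 on the Ts-NT arrays and 50621, 48899, 48789 and 42787 on the Ts-TPA arrays. The Krt14 probe was the brightest of the whole array on 13 arrays and the second brightest on 3, never under 96.2% of the array's maximum. Whether a signal this bright was still proportional to the RNA was not tested. Krt5, its filament partner, varied far more on the same arrays. Its raw signal was 8723, 7196, 3211 and 4099 on the WT-NT arrays and 5700, 4840, 1471 and 2252 on the WT-TPA arrays. The Ts-NT arrays gave 6851, 4673, 2434 and 3344 for Krt5, and the Ts-TPA arrays 7756, 3549, 2885 and 3070. All 4 groups overlapped for Krt5, and within each group the highest array exceeded the lowest by 2.69-fold to 3.88-fold, against 1.12-fold to 1.26-fold for Krt14.

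Krt10 was the only suprabasal member detected. Its raw signal was 1264, 1999, 579.8 and 610.6 on the WT-NT arrays and 590.3, 1525, 527.8 and 775 on the WT-TPA arrays. The Ts-NT arrays gave 933.2, 1535, 582.4 and 455 for Krt10, and the Ts-TPA arrays 524.5, 1451, 593.5 and 616. Replicate 2 was the highest array of every group, and the 4 groups overlapped.

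Krt15, Krt1 and Krt77 were detected on 0 of 16 arrays, where detection means that at most 1% of the array's negative controls were brighter. The lowest detection p-value of Krt15 was 0.0965, that of Krt1 0.118 and that of Krt77 0.0865. Their raw signals, 146.4 to 258.4 for Krt15, 135 to 251.1 for Krt1 and 143.2 to 260.8 for Krt77, lay below the lowest detected signal of the same array on all 16 arrays. For each of the 3 the Ts arrays all gave more raw signal than the WT arrays (for Krt15 at least 191.5 in Ts against at most 168 in WT), as did the median probe of the array, at 198 to 275 in Ts and 156 to 172 in WT. No fold change is given for these 3 keratins, whose RNA was not detectable at this background. A single probe stands for each gene, and whether the probes of Krt15, Krt1 and Krt77 bind their RNA well was not tested.

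**Figure D1:**
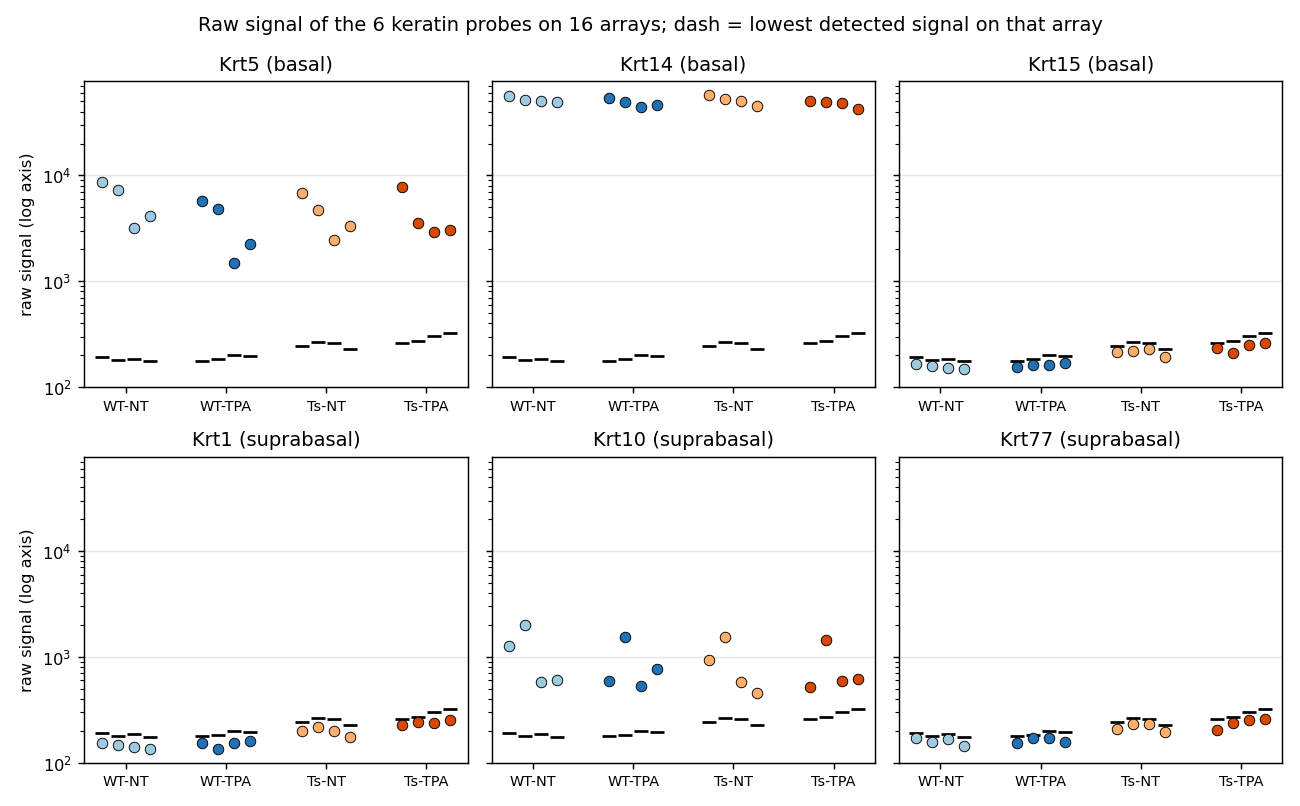
Raw signal in arbitrary units (log axis) of each of the 6 keratin probes on every array, with 1 point per array in the order of replicates 1 to 4 within each of the 4 groups, and a dash at the lowest detected signal of that array. Krt14 stays between 42787 and 57569, Krt5 and Krt10 spread within every group, and Krt15, Krt1 and Krt77 lie under the dash on all 16 arrays.

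The labelled cell type was checked against marker genes. All 10 measured keratinocyte markers passed the filter, Krt5 and Krt14 among them, and none of 5 immune and 3 endothelial markers did. Of 10 measured fibroblast markers 5 also passed. The raw signal of all 10, undetected ones included, summed to 2069 to 2713 on WT arrays and 2871 to 4010 on Ts arrays. The median probe of the array gave 156 to 172 on WT and 198 to 275 on Ts arrays, so these sums include much background. The immune markers, 4 of 5 of them detected on no array, summed to 758 to 870 on WT and 970 to 1336 on Ts arrays, and after normalization the median difference of the fibroblast genes was 0.37 in Ts-NT relative to WT-NT and −0.02 in Ts-TPA relative to WT-TPA. The fibroblast genes Lum and Pdgfra were detected on no array. Of 6 measured melanocyte markers 5 passed (all 6 summing to 9917 to 19867 on WT arrays and 12308 to 17598 on Ts arrays), and of 8 hair follicle markers 1 did. None of these lists had a gene called in any of the 6 comparisons below, and their part in the keratin values was not tested. The arrays detected 6371 to 8876 probes each.

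After normalization, in which values are on a log2-like scale, Krt5 had a mean ± s.d. of 12.37 ± 0.52 in WT-NT and 11.66 ± 0.87 in WT-TPA, against 11.88 ± 0.63 in Ts-NT and 11.71 ± 0.65 in Ts-TPA (n = 4 each). The corresponding values of Krt14 were 15.68 ± 0.14, 15.70 ± 0.09, 15.63 ± 0.09 and 15.38 ± 0.20. Those of Krt10 were 9.69 ± 0.89, 9.43 ± 0.75, 9.16 ± 0.88 and 8.78 ± 1.05. The s.d. between cultures was thus 0.52 or more for Krt5 and 0.75 or more for Krt10 in every group, and at most 0.20 for Krt14.

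**Figure D2:**
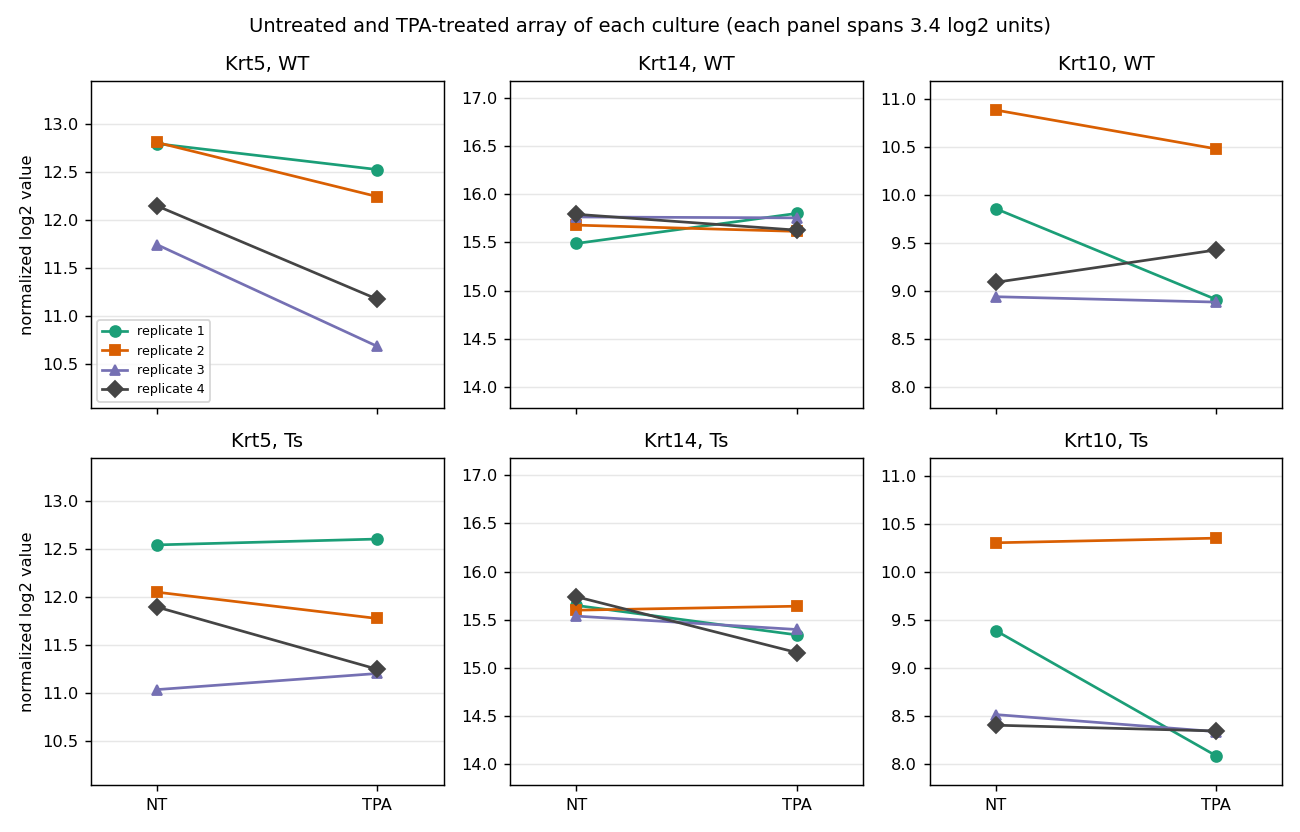
Normalized log2 value of Krt5, Krt14 and Krt10 (y axis) in the untreated (NT) and TPA-treated array of each culture, joined by a line, with WT cultures above and Ts cultures below and marker shapes for replicates 1 to 4. All 4 WT lines of Krt5 slope down, by 0.27 to 1.06, whereas the Ts lines of Krt5 and all lines of Krt14 and Krt10 run in both directions.

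The first question was whether TPA changed the keratins of WT cells. Among the basal members, Krt5 was lower in each of the 4 treated WT cultures than in its untreated counterpart, with log2 changes of −0.27, −0.56, −1.06 and −0.97 in replicates 1 to 4. Its mean change was −0.72 (SE 0.19, 95% interval −1.14 to −0.29), 1.64-fold lower, while the median of all probes moved by −0.05. This did not pass the threshold after adjustment over all 8317 probes tested (limma adjusted p = 0.0825). Of these probes 15.4% were likewise lower in all 4 WT cultures. In an RNA extract of a whole culture, fewer Krt5-making cells and less Krt5 RNA per cell cannot be told apart. Krt14, the partner of Krt5, had changes of 0.31, −0.06, −0.01 and −0.17 in the same cultures, a mean of 0.02 (SE 0.17, adjusted p = 0.964). The suprabasal member Krt10 had changes of −0.95, −0.40, −0.06 and 0.34, a mean of −0.27 (SE 0.22, adjusted p = 0.533), with both directions among the 4 cultures. Leaving out a culture moved this mean to between −0.47 (without replicate 4) and −0.041 (without replicate 1).

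Limma called 0 of the 3 tested members in WT cells, where it called 2.43% of all probes. At an unadjusted p below 0.05 Krt5 alone would pass, as did 18.9% of all probes. The call on Krt5 turned on the processing: adjusted p was 0.0177 with quantile normalization (change −0.72), 0.0148 with log2 signals centred on the array median (−0.83) and 0.0475 without WT replicate 1 (−0.87), and ranged up to 0.547 over the other alternatives. The settings that called Krt5 also called more of all probes, at 375, 457 and 348 against 202.

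In Ts cells the cultures showed no common direction for any of the 3 keratins. Krt5 had changes of 0.06, −0.27, 0.17 and −0.65 in replicates 1 to 4, with a mean of −0.17 (SE 0.22, 95% interval −0.66 to 0.31, limma adjusted p = 0.783). Krt14 had changes of −0.31, 0.04, −0.14 and −0.58, a mean of −0.25 (SE 0.21, adjusted p = 0.663), though its raw signal was lower with TPA in all 8 cultures of both genotypes. Krt10 had changes of −1.30, 0.05, −0.18 and −0.06, a mean of −0.37 (SE 0.26, adjusted p = 0.581). Leaving out a culture moved this mean to between −0.51 (without replicate 2) and −0.063 (without replicate 1). Limma called 0 of the 3 tested members in Ts cells and 0.938% of all probes, and none of the 3 had an unadjusted p below 0.05, as did 13.0% of all probes. No alternative called a member there.

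The difference between the genotypes' responses was tested in its own right. The Ts change of Krt5 minus its WT change was 0.54 (SE 0.28, 95% interval −0.07 to 1.15), a difference that was not called (limma unadjusted p = 0.0766, adjusted p = 0.9997). Krt14 differed by −0.26 (95% interval −0.80 to 0.27) and Krt10 by −0.11 (−0.87 to 0.66). Limma called 0% of all probes in this contrast, 0 members among them, and 0 of the 3 had an unadjusted p below 0.05, as did 3.62% of all probes. The other normalizations and filters called no member here either. With the other normalizations the unadjusted limma p of Krt5 was below 0.05, at 0.0337 (authors' values), 0.0135 (quantile), 0.0375 (neqc) and 0.0113 (centred log2 signals). Its adjusted p there was at least 0.9987, and each of these normalizations called 0 of all probes. The share of all probes with an unadjusted p below 0.05 is not given for them. With the other filters the unadjusted p of Krt5 was 0.109 and 0.0783.

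Over all 8 cultures together, the mean TPA response of Krt5 was −0.44 (SE 0.14, 95% interval −0.75 to −0.14), with 6 of 8 cultures lower (limma adjusted p = 0.0681). That of Krt10 was −0.32 (SE 0.18, −0.70 to 0.06, adjusted p = 0.287), also with 6 of 8 cultures lower (5 of 8 on the raw signal). With single cultures left out it ran from −0.42 (without WT replicate 4) to −0.17 (without Ts replicate 1), and was −0.21 without WT replicate 1. The mean response of Krt14 was −0.11 (SE 0.12, −0.38 to 0.15, adjusted p = 0.613). Limma called 0 of the 3 members, against 9.25% of all probes (4.03% higher and 5.22% lower), while Krt5 was among the 24.9% of probes with an unadjusted p below 0.05. Krt5 passed with the authors' normalized values (−0.40, adjusted p = 0.0454), quantile normalization (−0.40, 0.0347) and centred log2 signals (−0.53, 0.00641). These settings called 838, 878 and 1229 of all probes, against 769. The adjusted p of Krt5 reached 0.239 at the other end of the alternatives.

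**Figure D3:**
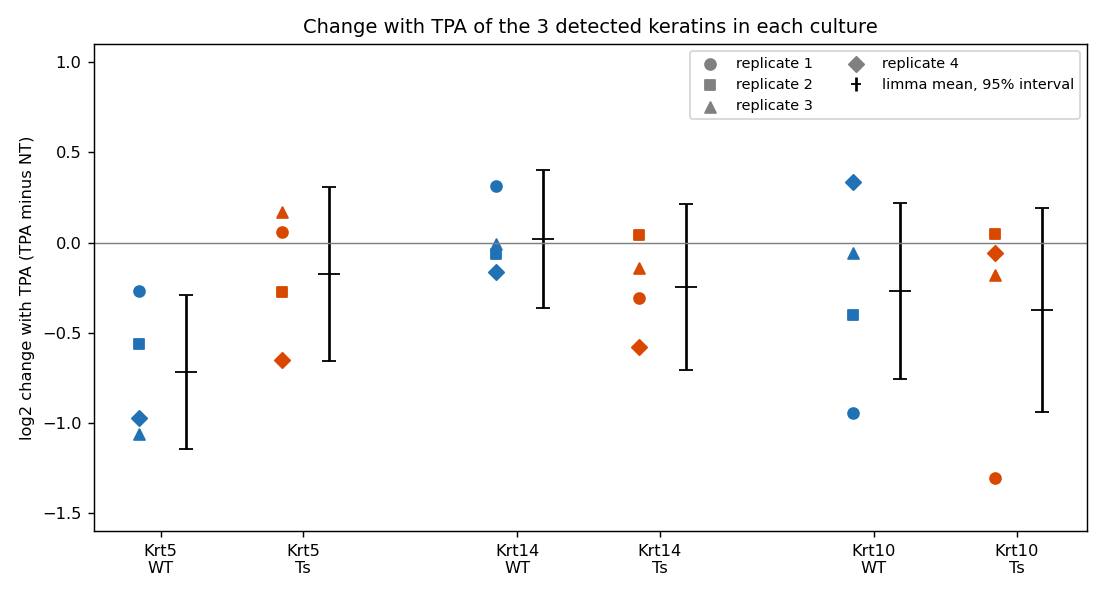
Change of Krt5, Krt14 and Krt10 with TPA (log2, TPA minus NT) in each of 4 WT (blue) and 4 Ts (orange) cultures, 1 marker shape per replicate, with the limma mean and its 95% interval in black. The interval of Krt5 in WT cells, −1.14 to −0.29, is the only one of the 6 that does not cross 0, before adjustment over all probes.

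Basal and suprabasal changes were compared within cultures, since the levels of different probes cannot be set against each other but their changes can. With Krt1, Krt77 and Krt15 at background, only the detected members could be compared. Krt10 minus Krt5 averaged 0.12 ± 0.89 and ran from −1.36 to 1.31, with a mean of 0.45 ± 0.89 in WT cells and −0.20 ± 0.87 in Ts cells. Krt10 minus Krt14 averaged −0.21 ± 0.64, positive in 3 cultures and negative in 5, with Krt14 at the top of the brightness range. These values show no shift of the detected suprabasal keratin against either basal one that exceeded its spread between cultures.

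Genotype was compared next. In untreated cells Krt5 was −0.49 in Ts relative to WT (SE 0.42, 95% interval −1.36 to 0.38, limma adjusted p = 0.654) and Krt10 −0.54 (SE 0.54; −1.67 to 0.59, adjusted p = 0.715). Both were lower in Ts in 4 of 4 pairs of cultures with the same replicate number, Krt5 at −0.25, −0.76, −0.71 and −0.25 and Krt10 at −0.47, −0.58, −0.42 and −0.68, as were 24.6% of all probes. Single arrays moved these means. That of Krt5 ran from −0.71 (without Ts-NT replicate 1) to −0.21 (without Ts-NT replicate 3). That of Krt10 ran from −0.92 (without Ts-NT replicate 2) to −0.14 (without WT-NT replicate 2). Krt14 differed by −0.05 (SE 0.16, adjusted p = 0.929), and the median of all probes by −0.16. Limma called 0 of the 3 members and 0.0721% of all probes, and none of the 3 had an unadjusted p below 0.05, against 12.6% of all probes. With the replicate number as a block the number of probes called rose from 6 to 106 and the unadjusted p of Krt5 and Krt10 fell below 0.05, but their adjusted p was 0.191 and 0.231.

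In TPA-treated cells Krt5 was 0.05 in Ts relative to WT (SE 0.42; −0.82 to 0.92, limma adjusted p = 0.970). Krt14 was −0.32 (SE 0.16; −0.66 to 0.03, adjusted p = 0.374) and Krt10 −0.64 (SE 0.54; −1.77 to 0.48, adjusted p = 0.596), against a median of all probes of −0.20. Krt10 was lower in 4 of 4 pairs (−0.82, −0.13, −0.55 and −1.08), as were 26.5% of all probes, and its mean ran from −1.17 without Ts-TPA replicate 2 to −0.29 without WT-TPA replicate 2. Limma called 0 of the 3 members and 0.0120% of all probes, with no member at an unadjusted p below 0.05, against 14.6% of all probes. The replicate block raised the probes called from 1 to 154 and took the unadjusted p of Krt10 below 0.05, its adjusted p being 0.137. Krt14 was called lower in Ts when log2 signals were only centred, by 0.42 in untreated (adjusted p = 0.0324) and 0.61 in treated cells (adjusted p = 0.00869), a setting without background correction on Ts arrays that were brighter at background. That setting called 1003 and 848 of all probes.

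The signals of Krt5 and Krt10 also followed the replicate number, in a test chosen after the values were seen. Krt10 was highest in replicate 2 of all 4 groups, 1.24 above its group mean on average, with the other 3 replicates at −0.20, −0.59 and −0.45. Krt5 was lowest in replicate 3 of all 4 groups, at −0.74 on average, and highest in replicate 1 of 3 groups, at 0.71. Krt14 showed none of this, with mean deviations of −0.03 to 0.03. A limma F test of the replicate number over the 16 arrays called Krt5 (F = 21.1, adjusted p = 0.000935) and Krt10 (F = 25.3, adjusted p = 0.000418) and not Krt14 (F = 0.0649, adjusted p = 0.986), where it called 17.0% of all probes. If the arrays are paired as taken here, both arrays of a culture share their cells. The test was therefore repeated on the 8 culture means, where it called 14.4% of all probes. It called Krt5 (adjusted p = 0.00433) and Krt10 (adjusted p = 0.00118), and Krt14 had an adjusted p of 0.990. What the arrays of a WT and a Ts culture with the same number have in common, the sources used here do not say.

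**Figure D4:**
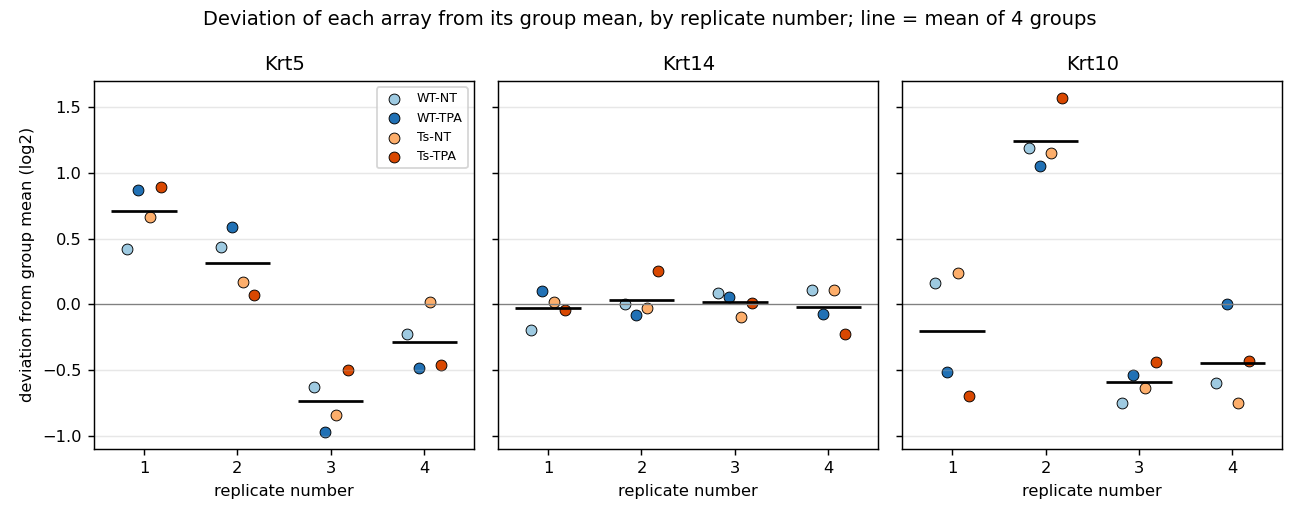
Deviation of each array from its group mean (log2) for Krt5, Krt14 and Krt10 by replicate number (x axis), with 1 point per group and a line at the mean of the 4 groups. Krt10 stands 1.05 to 1.57 above the group mean in replicate 2 of all 4 groups, Krt5 stands 0.50 to 0.97 below it in replicate 3, and Krt14 stays between −0.23 and 0.26.

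The genes whose pattern over the 16 arrays was most like each member, among 6062 genes past the filter, differed from member to member. For Krt10 they were Pof1b (r = 0.912), Chil1 (0.885) and Ppl (0.878), of which Ppl encodes periplakin, a linker of desmosomes to keratin filaments. For Krt14 they were Krt17 (0.846), Thoc5 (0.820) and the ribosomal protein gene Rplp1 (0.813). Krt17 and Rplp1 also shared the top of the brightness range with Krt14, ranking no lower than 3 and 4 on any array. For Krt5 they were the splicing factor gene Sf3a1 (0.890), Hdlbp (0.887) and Alg5 (0.885). The members correlated less with each other, at 0.14 for Krt5 and Krt14, 0.42 for Krt5 and Krt10, and 0.32 for Krt14 and Krt10. These arrays share cultures, replicate numbers and array background, so the coefficients are descriptions only.

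Among the other keratins of the array, 12 of 41 passed the filter. None of the 12 was called lower with TPA in either genotype, and the median of their changes in the mean response was 0.24, against −0.07 over all probes. In the mean response limma called 4 of them higher, against 4.03% of all probes: Krt90 by 1.67 (SE 0.15, adjusted p = 2.79e-05), Krt23 by 1.16 (SE 0.31, adjusted p = 0.0328), Krt42 by 0.69 (SE 0.18, adjusted p = 0.0342) and Krt18, a keratin of simple epithelia, by 0.58 (SE 0.15, adjusted p = 0.0306). In WT cells alone Krt90 (1.62, adjusted p = 0.00489) and Krt23 (1.36, adjusted p = 0.0488) were called, and in Ts cells Krt90 (1.71, adjusted p = 0.00477). The WT call of Krt23 was lost under 5 of 11 alternatives, including without WT replicate 2 (1.11, adjusted p = 0.177), 3 (1.17, 0.196) or 4 (1.35, 0.239), and that of Krt90 under 2, including without WT replicate 4 (1.64, 0.0677). All 4 wound keratins passed the filter and none was called, including Krt6a (mean response 0.15, adjusted p = 0.516, its other probe −0.11) and Krt16 (−0.13, adjusted p = 0.654), a pair that keratinocytes are known to make in wounds. Krt90 was called in the mean response under all 15 alternatives, Krt23 under 8, Krt42 under 5 and Krt18 under 4. The probes of Krt42 and Krt18 were each detected on only 12 of 16 arrays. The change of Krt42 was 0.31 with the authors' values and 0.28 with centred log2 signals, and that of Krt18 was 0.23 and 0.18. None of the other keratins was called between the genotypes or in the difference of responses.

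Other genes of the basal layer, not all of which bind keratin filaments, were examined beside the basal keratins. Of 12 measured genes of the basal layer, 4 were called higher in the mean TPA response and none lower, against 4.03% and 5.22% of all probes. Like the other lists, this one was chosen with earlier results of these data known. The 4 were the integrin subunits Itga3 (0.77 ± 0.16 SE, limma adjusted p = 0.00905) and Itgb1 (0.50 ± 0.12 SE, adjusted p = 0.0219), the laminin chain Lamb3 (0.92 ± 0.17 SE, adjusted p = 0.00549) and the hyaluronan receptor Cd44 (1.00 ± 0.12 SE, adjusted p = 0.000301). The median change of all 12 genes was 0.07. Cd44 alone of these was called in WT (0.86, adjusted p = 0.0382) and in Ts cells (1.14, adjusted p = 0.0259), by limma over all probes, each under 6 of 11 alternatives. In the mean response Cd44, Itga3 and Lamb3 were called under all 15 alternatives and Itgb1 under 11.

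Of 16 genes of the spinous and granular layers on the array, where Krt10 belongs, 13 passed the filter. Of these 1 was called higher in the mean response and 3 lower, against 4.03% and 5.22% of all probes, with a list median of 0.17. The desmosomal cadherin Dsc1 was higher by 0.61 (SE 0.16, adjusted p = 0.0317). The receptor Notch3 (−0.53, adjusted p = 0.0205), the galectin Lgals7 (−0.61, adjusted p = 0.0188) and the transcription factor Grhl1 (−0.84, adjusted p = 0.0164) were lower, although the dimmer of the probes of Grhl1 gave 0.35 (adjusted p = 0.123). In WT cells alone Sbsn, a secreted protein of the suprabasal layers, was called by 1 probe (0.87, adjusted p = 0.0382) and not by its brighter one (0.45, adjusted p = 0.216). Of 10 desmosome and linker genes on the array, which anchor keratin filaments at cell junctions, 9 passed the filter. Among them 2 were called lower in the mean response, against 5.22% of all probes, with a list median of −0.12. Plakoglobin (Jup) was lower by 0.56 (SE 0.16, limma adjusted p = 0.0442) and plakophilin 3 (Pkp3) by 0.60 (SE 0.15, adjusted p = 0.0243). Of the 15 alternatives Lgals7 was called under 13, Grhl1 under 11, Notch3 and Pkp3 under 9 each, Dsc1 under 7 and Jup under 5. No gene of these lists was called between the genotypes or in the difference of responses.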

How the data were processed

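RNA of WT and Ts keratinocytes, with and without TPA, was measured on 16 single-color bead arrays. The authors deposited raw intensity values with a detection p-value per probe, the p-value ranking a probe among the negative controls of its array. They also deposited log2 values normalized with vsn, and no columns of their own comparisons. The sources used here do not give the versions of their tools. Values here start from the raw intensity: the variance stabilizing model was written anew in R 4.3.3 (a share of 0.9 of the probes kept, 7 rounds, 10 strata), and correlated with the authors' values at 0.958 to 0.964. Probes were kept where, in either genotype, at least 4 of its 8 arrays had a detection p of at most 0.01, 8317 of 25697. Brightness limits precision at the low end, and no count lies behind a value.

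Groups came from the sample labels. Limma 3.58.1 was fitted to all kept probes with Benjamini-Hochberg adjustment and a threshold of 0.05. TPA was tested within each genotype with the culture as a block, as in the methods, and over 16 arrays with 8 cultures as blocks. Genotypes were compared over 4 group means without a block. Within a genotype the methods pair arrays by the source of the cells, taken here to be the replicate number. Deviations from group means correlated at 0.07 to 0.45 between arrays of the same number, which does not establish the pairing. Across genotypes they correlated at 0.24 to 0.57, all above 0.1, so the replicate number was also fitted as a block. The alternatives were the authors' values, quantile normalization after normexp (offset 50), neqc (offset 16), median-centred log2, 2 other filters, other blocks (with statmod 1.5.0) and leaving out each array or culture. The model and tests were checked on simulated data.

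The members and lists were chosen with earlier results of these data known. Genes outside the members were named by rule: keratins called with TPA, up to 4 called genes a list by lowest p or the 2 of lowest p where none was called, and the 3 genes that correlated best with each member. A gene is called when any of its probes is, and its values come from its brightest probe. Promoter windows come from the RefSeq table of GRCm38.p6. The files state no build.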

Additional observations from a re-analysis of the deposited data

Results flagged for a closer look

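Of 36 sets of 4 arrays or cultures examined for a value far from the rest, 2 were flagged, both for Krt10. Chance gives about 1 in 20, so 2 of 36 is near the share expected by chance. The sets include those of the undetected Krt15, Krt1 and Krt77. In Ts-TPA, replicate 2 had a normalized log2 value of 10.35 and the other 3 lay between 8.09 and 8.35, so that the gap took up a share of 0.886 of the group's range. In the TPA change of Krt10 in Ts cells, replicate 1 stood at −1.30 and the other 3 between −0.18 and 0.05, with a gap share of 0.833.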

How the results depend on the processing

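The count of keratin members called was 0 in all 6 comparisons and rose under some alternatives. For TPA in WT it was 1 (Krt5) with quantile normalization and 1 with median-centred log2 signals. These settings called 375 and 457 of all 8317 probes, against 202 with the processing used above. The member count ran from 0 to 1 when each culture was left out, with 1 without WT replicate 1, where 348 probes were called. For the mean response it was 1 with the authors' values, 1 with quantile normalization and 2 (Krt5 and Krt14) with centred signals. Those settings called 838, 878 and 1229 of all probes, against 769. In both genotype comparisons the member count was 1 (Krt14) with centred signals, which called 1003 and 848 of all probes. Every alternative for TPA in Ts and for the difference in response kept it at 0. Without the replicate block the probes called fell from 202 to 31 for TPA in WT and from 78 to 35 in Ts, and with it those between genotypes rose from 6 to 106 and from 1 to 154. Pairing by number changed no call of a member.

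Signs turned only for values near 0 that passed no test. Krt14 with TPA in WT became −0.13 with centred signals and −0.080 without WT replicate 1, and ran up to 0.079 with other cultures left out. Krt14 in Ts-NT vs WT-NT became 0.072 with the authors' values, 0.033 with quantile normalization and 0.033 with neqc. Krt5 in Ts-TPA vs WT-TPA became −0.23 with centred signals, −0.27 without WT-TPA replicate 3, −0.11 without WT-TPA replicate 4 and −0.25 without Ts-TPA replicate 1, within a range of −0.27 to 0.34 over the arrays left out. The difference in response of Krt10 became 0.031 with centred signals, 0.095 without WT replicate 4 and 0.20 without Ts replicate 1, within a range of −0.33 to 0.20. The causes were not tested. Krt5 and Krt10 passed the test of replicate number in all 7 alternatives while Krt14 passed in none. Quantile normalization gives the brightest probes nearly the same value on every array by construction, which includes Krt14. Arrays limit these results at both ends, with Krt15, Krt1 and Krt77 at background and Krt14 near the brightest signal.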
